A study of Homo sapiens with 4 samples.

Results

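The genes described here encode the human factors that end transcription: subunits of the Integrator complex, the cleavage and polyadenylation machinery, and factors that release RNA polymerase II (Pol II) or restrain early termination. They were chosen as 41 gene symbols, 12 for Integrator, 20 for cleavage and polyadenylation and 9 for termination, and every row of the table carrying 1 of these names was taken. The table listed 36 of the 41 among its 10147 genes, with 11 Integrator, 18 cleavage and polyadenylation and 7 termination genes. CPSF1, PABPN1, TTF2, WDR82 and INTS14 had no row under those names and are not analysed here as members, although INTS14 appears under its older symbol VWA9 and is given with the other genes of these pathways. All 36 listed members passed the read recovery described below, and no filter on low values was applied beyond the one by which the study selected expressed genes.

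RNA synthesis was measured by transient transcriptome sequencing (TT-seq), in which new RNA is labelled with 4-thiouridine (4sU) for 5 min at 500 µM, fragmented and purified before sequencing. The cells were K562, a human chronic myelogenous leukemia line, edited so that the endogenous IWS1 gene carries an N-terminal dTAG. IWS1 is a transcription elongation factor that travels with Pol II, and the dTAG lets the ligand dTAG7 send the tagged protein for degradation. The dIWS1 group received 500 nM dTAG7 for 1 h and the control group received the DMSO solvent for 1 h, with 2 samples in each group and the tagged allele in both. No untagged cells treated with dTAG7 are compared here, so an effect of the ligand apart from loss of IWS1 cannot be told apart. The question was how the synthesis of each of these transcripts differs after acute depletion of IWS1.

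The deposited table gives 1 mean per gene over the library columns, from which whole read pairs per column were recovered for 10132 genes. The means contained 3 different columns and not 4, because 1 control column enters the mean 2 times. It was therefore counted as 1 control sample (n = 1) against 2 dIWS1 columns (n = 2), here called column 1 and column 2. The table names none of its columns and ties none of them to a replicate. Which of them is the control was read from the form of the comparison, dIWS1/control, in which the 2 different columns are divided by the repeated one. Depth in genes was 29423912 read pairs in the control, 20396397 in column 1 and 20613208 in column 2. Of 11 genes that mark K562 cells, 10 were listed (129 to 46792 control read pairs), including GATA1, KLF1 and the fetal globin genes. Markers of B cells, fibroblasts and hepatocytes (3 of each) were not listed, and of 3 T cell markers CD3D was listed with 135 control read pairs. The tagged gene IWS1 had 3684 control read pairs, 2334 in column 1 and 2427 in column 2, a log2 fold change of -0.55 (SE 0.15). This is no check of the depletion, which acts on the protein.

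Integrator is a large complex that binds paused Pol II near promoters. One of its modules is an RNA endonuclease that cuts the nascent RNA, another recruits protein phosphatase 2A to remove phosphates from Pol II and its partners, and it also processes the ends of small nuclear RNAs. At the ends of protein coding genes the cleavage and polyadenylation specificity factor (CPSF) recognises the poly(A) signal and cuts the RNA, aided by the cleavage stimulation factor (CSTF) and cleavage factors I and II, after which a poly(A) polymerase adds the tail. The exonuclease XRN2 then degrades the RNA still attached to Pol II, and other factors such as ZC3H4 stop transcription outside normal gene ends. SCAF4 and SCAF8 do the opposite and prevent the use of early poly(A) sites.

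Under spike-in scaling, which keeps a change common to all genes, RNA synthesis of all 36 members was below the control in both dIWS1 columns. The same held for 92.1% of the 10132 genes, so this count is near the background. The median log2 fold change of the members was -0.49, with a range from -1.60 (INTS3) to -0.10 (PAPOLG), and the median of all genes was -0.43. In the model across all genes (limma voom, two-sided, Benjamini-Hochberg adjusted p under 0.05), 28 of 36 members were lower in dIWS1 cells, none was higher (also 0 at an unadjusted p under 0.05 and 0 in limma without voom weights) and 8 did not pass. Over all genes 64.4% were lower and 0.109% were higher. Among genes whose mean normalized count reached 100, as it did for every listed member, 67.43% were lower. In these bulk samples, fewer cells that make a transcript and less of it made per cell cannot be told apart.

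Since most genes fell together, each member was also tested against the median gene, that is, with -0.43 subtracted from its log2 fold change. Here 5 of the 36 members were lower and none was higher (1, PAPOLG, at an unadjusted p under 0.05, and 0 without voom weights, but 3 when the columns were scaled by their total reads, as given below), against 4.78% lower and 3.01% higher over all genes. They were INTS3 and INTS6 of Integrator, PCF11 and CPSF2 of the cleavage machinery and ZC3H4 of the termination factors. Of the others, 17 lay below the median gene and 14 above it without passing the test, and the median of these 31 members was -0.46. Not passing does not show that a member followed the median gene, since the 95% intervals are wide (for INTS2, -0.64 to -0.06). With a single control column, the test borrows its spread from all genes and assumes that the control varies as the dIWS1 columns do. Subtracting the median left the SE unchanged. The shift between the column medians (-0.47 in column 1 and -0.37 in column 2) therefore stays in the spread. The size of the p-values given below rests on that spread. An exact permutation test of 1 sample against 2 cannot reach 0.05 for any gene.

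**Figure D1:**
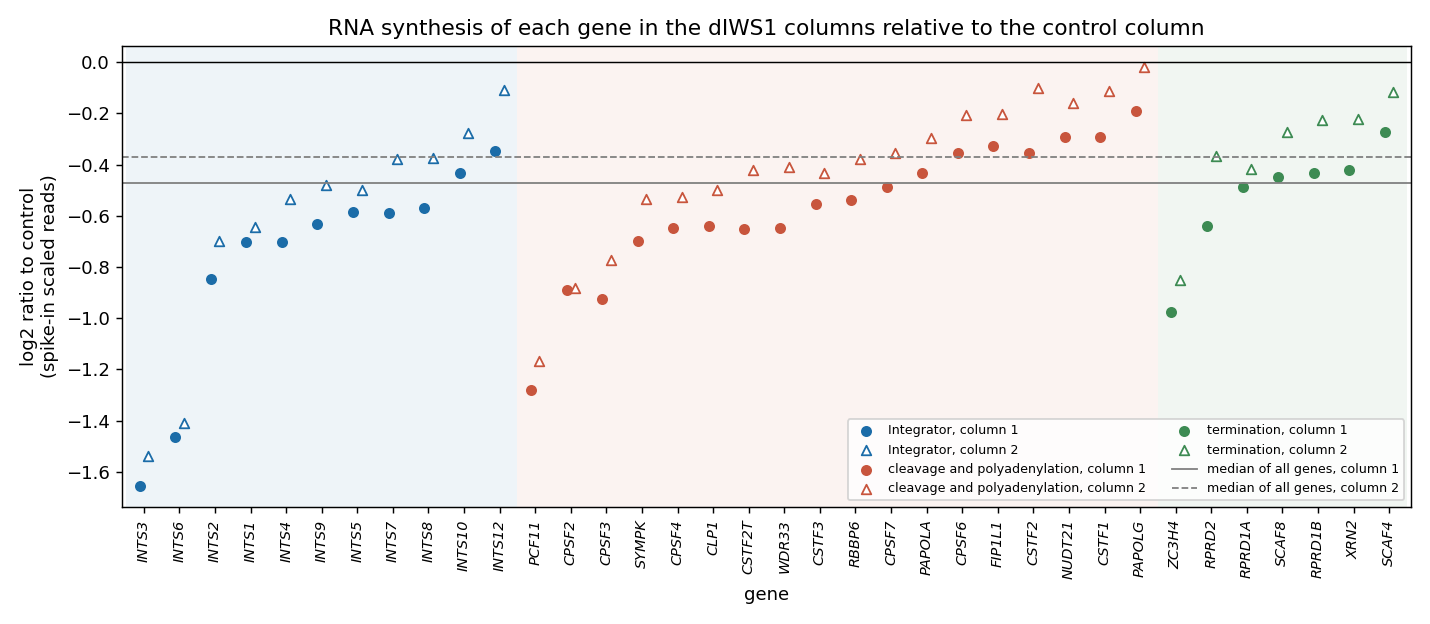
Log2 ratio of spike-in scaled read pairs in each dIWS1 column to the control column for the 36 listed members, ordered within the 3 subgroups, with filled circles for column 1 and open triangles for column 2. Grey lines mark the medians of all genes (-0.47 in column 1 and -0.37 in column 2), and INTS3, INTS6 and PCF11 lie below -1.1 in both columns.

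The sequences upstream of these 5 genes are shown because these were the members called lower relative to the median gene. Each is the 100 bases before the gene start in RefSeq (GRCh38.p14), written 5′ to 3′ on the strand of the gene, at chr13:51453037-51453136 (minus strand) for INTS6, chr1:153727950-153728049 (plus) for INTS3, chr11:83157031-83157130 (plus) for PCF11, chr14:92121869-92121968 (plus) for CPSF2 and chr19:47113777-47113876 (minus) for ZC3H4. Capitals mark matches, on either strand, to 6 fixed strings, which are the CCAAT box (CCAAT), the GC box (GGGCGG), the TATA box (TATAAA) and the core sites of ETS factors (CCGGAAG), NRF1 (GCATGCGC) and YY1 (AAGATGGCG).
INTS6: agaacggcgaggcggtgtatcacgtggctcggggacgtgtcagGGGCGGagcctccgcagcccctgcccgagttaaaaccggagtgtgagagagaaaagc
INTS3: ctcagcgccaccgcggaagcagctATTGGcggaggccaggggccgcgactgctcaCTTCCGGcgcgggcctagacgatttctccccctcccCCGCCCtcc
PCF11: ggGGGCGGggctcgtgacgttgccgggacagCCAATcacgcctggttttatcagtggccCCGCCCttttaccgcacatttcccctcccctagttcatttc
CPSF2: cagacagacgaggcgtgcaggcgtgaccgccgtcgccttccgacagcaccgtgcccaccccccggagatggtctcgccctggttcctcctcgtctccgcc
ZC3H4: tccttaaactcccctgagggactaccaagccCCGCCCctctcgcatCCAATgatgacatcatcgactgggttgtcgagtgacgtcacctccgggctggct
The capitals in the INTS6 promoter are 1 GC box, those of PCF11 and ZC3H4 are CCAAT and GC boxes, and INTS3 has these and an ETS string. CPSF2 has no capitals in the bases shown and a CCAAT box farther upstream. In the 250 bases before the start, which were searched for every gene, a CCAAT box was found in 4 of the 5 promoters (not in INTS6) and a GC box in 4 of the 5 (not in CPSF2). Promoter sequences were matched for 31 of the 36 members. Of these, 12 (38.7%) held a CCAAT box and 20 (64.5%) a GC box, beside 36.1% and 68.8% of the 8018 listed genes with a promoter and 33% and 42.3% of all 27305 promoters. ETS strings were in 8 member promoters (25.8%), against 18.1% of listed genes and 8.82% of all. NRF1 strings were in 2 (6.45%), against 5.26% and 2.81%. TATA and YY1 strings were in 0 of the 31, against 5.13% and 1.35% of listed genes and 11.1% and 0.641% of all promoters. None of the 6 strings contains another, and a match is a description of letters and not of factor binding.

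Integrator genes had a median log2 fold change of -0.56 over 11 genes, and 10 of the 11 were lower under spike-in scaling, where 64.4% of all genes were. Of the 11, 9 lay below the median gene and 2 of these passed the test against it, beside 4.78% of all genes. Leaving out those 2, the median of the other 9 was -0.54.

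INTS3 had the lowest fold change of all members. It lies on chromosome 1 (153728050 to 153774808, plus strand) and encodes the subunit that, besides its place in Integrator, forms a complex with single-stranded DNA binding proteins in DNA repair. It had 823 read pairs in the control, 257 in column 1 and 258 in column 2. The dIWS1 columns were nearly equal and both far below the control, with log2 ratios of -1.65 and -1.54. The log2 fold change was -1.60 (SE 0.14), which leaves 33.1% of control synthesis (95% interval 27.5 to 39.8%). Relative to the median gene it was -1.17 (limma voom, adjusted p = 9.78e-15), and 14 of the 8896 genes whose mean normalized count reached 100 had a lower fold change.

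INTS6 followed, a gene of 118.6 kb on chromosome 13 (51334405 to 51453036, minus strand) whose product links protein phosphatase 2A to the complex. Its read pairs numbered 7823 in the control, 2792 in column 1 and 2685 in column 2. Both dIWS1 columns again lay together and well below the control, at log2 ratios of -1.46 and -1.41. The fold change was -1.44 (SE 0.15), or 37.0% of control synthesis (95% interval 30.2 to 45.2%). It was -1.01 relative to the median gene (limma voom, adjusted p = 4.9e-09), and 28 of the 8896 genes were lower. Its paralogue INTS6L, which is no member, had 3400, 2819 and 2753 read pairs in the control, column 1 and column 2 and a log2 fold change of -0.21, which did not pass either test. INTS6 was below INTS6L by a difference of -1.23 (95% interval -1.64 to -0.81), in a comparison made after both values were seen.

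The other Integrator genes lay closer to the median gene. The backbone genes INTS1 (-0.67, SE 0.14), INTS2 (-0.77, SE 0.15) and INTS7 (-0.48, SE 0.14) were lower under spike-in scaling, and relative to the median gene they did not pass (adjusted p = 0.291, 0.136 and 0.853 in the limma fit). INTS2 had 3526 read pairs in the control, 1927 in column 1 and 1978 in column 2. Both of its dIWS1 columns were below the control, as for 92.1% of all genes. INTS4 (-0.62) and INTS9 (-0.56) of the endonuclease module were lower, as were INTS5 (-0.54) and INTS8 (-0.47), which form the shoulder of the complex. INTS9 is the catalytically inactive partner of the endonuclease INTS11. INTS10 (-0.35), of the arm, also passed, with 998 read pairs in the control, 728 in column 1 and 750 in column 2.

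INTS12, a PHD finger protein, had the highest value of the Integrator genes. Its read pairs numbered 1127 in the control, 872 in column 1 and 951 in column 2. Column 2 lay nearer the control, with log2 ratios of -0.35 and -0.11. Its fold change of -0.23 (SE 0.13) did not pass under spike-in scaling (limma adjusted p = 0.121), nor at 0.20 above the median gene.

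Genes of cleavage and polyadenylation had a median of -0.47 over 18 genes, 12 of them (66.67%) lower under spike-in scaling, which is near the 64.4% of all genes. They were spread around the median gene with 10 below it and 8 above it. Of the 18, 2 were lower relative to the median gene, beside 4.78% of all genes, and the median of the other 16 was -0.44. The complexes differed in where their genes lay. The 6 CPSF genes had a median of -0.60, the 4 CSTF genes -0.36, the 3 genes of cleavage factor I -0.28, the 2 of cleavage factor II -0.90 and the 2 poly(A) polymerase genes -0.23. With so few genes in each, these medians are a description without a test.

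PCF11 had the lowest value in this subgroup. It is a gene of 30.3 kb on chromosome 11 (83157131 to 83187451, plus strand), and its product is the part of cleavage factor II that binds the C-terminal domain of Pol II and promotes termination. There were 4714 read pairs in the control, 1911 in column 1 and 1910 in column 2. The ratios of -1.28 and -1.17 put both columns at less than the control by more than any other cleavage gene. The log2 fold change was -1.22 (SE 0.15), or 42.8% of control synthesis (95% interval 35.0 to 52.4%), and relative to the median gene it was -0.80 (limma voom, adjusted p = 8.98e-06). Of the 8896 genes, 65 were lower. CLP1, its partner in cleavage factor II and also an RNA kinase, is a gene of 4.1 kb with 168, 106 and 108 read pairs in the control, column 1 and column 2. Its log2 fold change was -0.57 (SE 0.17), lower under spike-in scaling and not relative to the median gene (limma adjusted p = 0.658).

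CPSF2 and CPSF3 encode a pair of related proteins, of which CPSF3 is the endonuclease that cuts the pre-mRNA and CPSF2 is inactive. CPSF2 (chromosome 14, 92121969 to 92172145, plus strand) had 4078 read pairs in the control, 2165 in column 1 and 2014 in column 2, with ratios of -0.89 and -0.88. CPSF3 (chromosome 2, 9423654 to 9473101, plus strand) had 3259, 1690 and 1737, with ratios of -0.92 and -0.77. For both genes the dIWS1 columns lay below the control without overlap, as for 92.1% of all genes. The log2 fold changes were close, -0.89 (SE 0.15) for CPSF2 and -0.85 (SE 0.15) for CPSF3. They fell on different sides of the threshold relative to the median gene, with CPSF2 at -0.46 (limma voom, adjusted p = 0.031) and CPSF3 at -0.42 (adjusted p = 0.0532), so the call does not separate them. CPSF3 passed when genes with a mean under 100 were left out (adjusted p = 0.0427). CPSF2 did not pass in the limma fit without voom weights (adjusted p = 0.0865).

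The other CPSF genes are the scaffold SYMPK (-0.62, SE 0.15), CPSF4 (-0.59, SE 0.14) and WDR33 (-0.53, SE 0.15), which recognise the poly(A) signal, and FIP1L1 (-0.27, SE 0.15), which contacts the poly(A) polymerase. The first 3 were lower under spike-in scaling and FIP1L1 did not pass (limma adjusted p = 0.097). FIP1L1 had 9059 read pairs in the control, 7093 in column 1 and 7162 in column 2. RBBP6, an activator of cleavage, was lower at -0.46.

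In CSTF, CSTF3 (-0.49) and CSTF2T (-0.54) were lower, whereas CSTF1 (-0.20) and CSTF2 (-0.23) did not pass (limma adjusted p = 0.157 and 0.12). CSTF2 binds the sequence downstream of the cut, and CSTF2T is its intronless copy on another chromosome. CSTF2 had 1080 read pairs in the control, 830 in column 1 and 918 in column 2, and CSTF2T had 278, 174 and 189. Their fold changes differed by 0.31, with a 95% interval from -0.08 to 0.70 that includes 0. Because the copies are alike in sequence and only uniquely aligned pairs were kept, counts in shared stretches are uncertain. In cleavage factor I, which binds upstream of the poly(A) signal, CPSF7 (-0.42) was lower, and NUDT21 (-0.22) and CPSF6 (-0.28) did not pass. All 3 lay above the median gene.

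Both poly(A) polymerase genes lay above the median gene. PAPOLA, the main nuclear poly(A) polymerase, had 9062 read pairs in the control, 6603 in column 1 and 6717 in column 2 and was lower at -0.37 (SE 0.15). PAPOLG, its paralogue, had 1517, 1306 and 1364. Its ratios were -0.19 and -0.02, so column 2 was almost level with the control. At -0.10 (SE 0.14, limma adjusted p = 0.495) it had the highest fold change of the members, and it stood 0.32 above the median gene without passing (adjusted p = 0.148). The difference between PAPOLA and PAPOLG was -0.26 (95% interval -0.66 to 0.14).

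**Figure D2:**
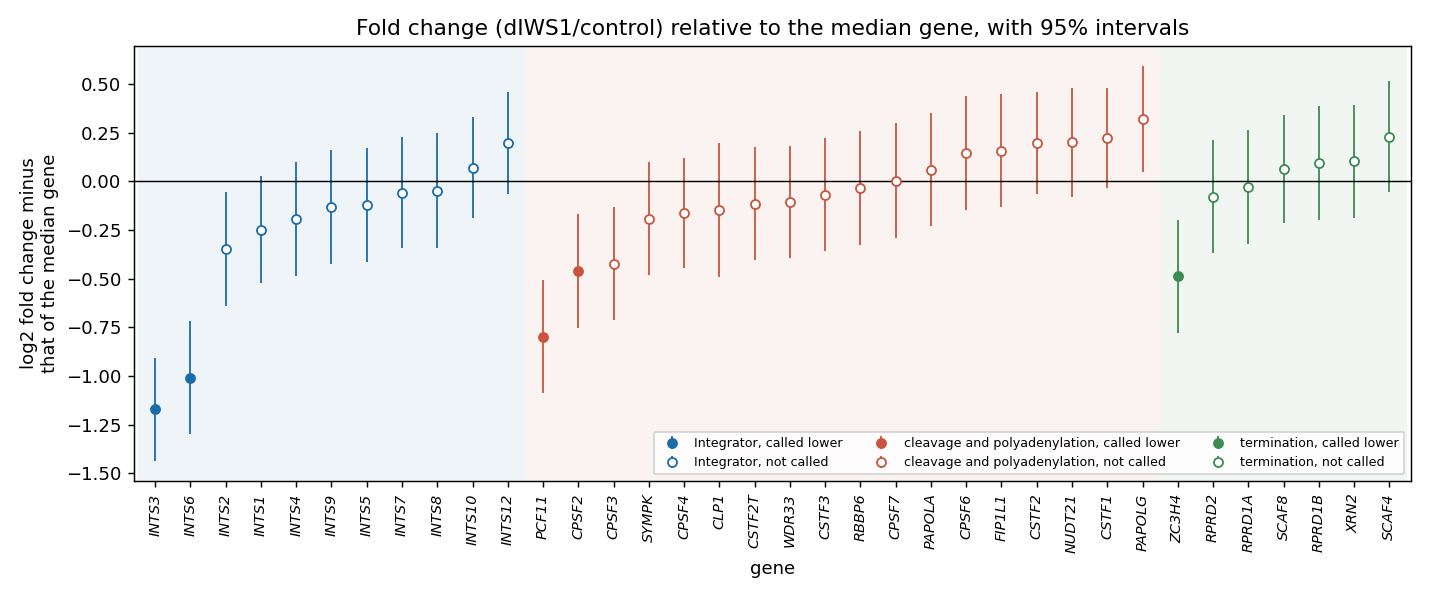
Log2 fold change (dIWS1/control) of each listed member minus that of the median gene, with unadjusted 95% intervals from the limma voom fit. Filled points are the 5 members called lower at an adjusted p under 0.05 and open points the 31 that were not, of which the intervals of CPSF3, INTS2 and PAPOLG also leave out 0.

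Termination factor genes had a median of -0.36 over 7 genes, above the -0.43 of all genes, and 6 of the 7 were lower under spike-in scaling, beside 64.4% of all genes. ZC3H4, the zinc finger protein of the restrictor complex that stops transcription of unwanted noncoding RNA, was the lowest. It lies on chromosome 19 (47064187 to 47113776, minus strand) and had 3465 read pairs in the control, 1734 in column 1 and 1749 in column 2. Both columns were well below the control, with ratios of -0.97 and -0.85. The fold change was -0.91 (SE 0.15), or 53.1% of control synthesis (95% interval 43.5 to 64.95%), and -0.49 relative to the median gene (limma voom, adjusted p = 0.02). This call was lost without voom weights (adjusted p = 0.0591). ZC3H4 was the only 1 of the 7 that was lower relative to the median gene, beside 4.78% of all genes. Without ZC3H4, the median of the other 6 was -0.34, above that of all genes.

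XRN2, the exonuclease that degrades the RNA downstream of the cut, had 8990 read pairs in the control, 6597 in column 1 and 7020 in column 2. Its log2 fold change of -0.32 (SE 0.15) was lower under spike-in scaling close to the threshold (limma adjusted p = 0.0456) and lay 0.10 above the median gene. The proteins of the RPRD family bind the C-terminal domain of Pol II. RPRD2 (-0.50), RPRD1A (-0.45) and RPRD1B (-0.33) were lower under spike-in scaling, and none passed relative to the median gene. RPRD2 was the member whose columns differed most once each was centred on its own median gene (by 0.17 on the log2 scale).

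The anti-terminators SCAF4 and SCAF8 were the members with the most new RNA per length. SCAF8 had 21921 read pairs in the control, 15819 in column 1 and 16545 in column 2 and was lower at -0.36 (SE 0.14). SCAF4 had 11784, 9608 and 9888, with ratios of -0.27 and -0.12, and at -0.19 (SE 0.15) it did not pass (limma adjusted p = 0.219). It was the highest of the termination genes. Both lay above the median gene, and they differed from each other by 0.16 (95% interval -0.23 to 0.56). The pairs RPRD1A and RPRD1B (difference -0.12, 95% interval -0.54 to 0.29) and CPSF6 and CPSF7 (0.14, 95% interval -0.27 to 0.56) likewise had intervals that include 0. Of the 5 pairs of paralogues within the members, none differed beyond its interval, unlike INTS6 and INTS6L above. These intervals are wide enough to hold differences of over 0.5 in 1 direction. They treat the genes of a pair as independent, so the shift between the dIWS1 columns widens them although it cancels within a pair. Against the same control column, the difference kept its sign from column 1 to column 2 in all 5 pairs. It was 0.29 and 0.32 for CSTF2 and CSTF2T, and least alike for RPRD1A and RPRD1B (-0.05 and -0.19). A test that pairs the genes within columns was not run, so these intervals do not show that paralogues changed alike.

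Levels of synthesis were compared per kb of RefSeq gene span, introns included, in spike-in scaled read pairs of the control. They ran from 17.4 per kb for INTS3 to 215.3 for SCAF8, with a median of 71.8 for the members and 40.7 for all genes. SCAF8 was followed by SCAF4 (191 per kb), CPSF6 (188.6), CPSF7 (178.7), PCF11 (154) and INTS7 (149.1). The medians were 51.0 per kb for Integrator, 86.6 for cleavage and polyadenylation and 102.9 for termination. Within the control there is no second column to give a spread, so neighbours in this order cannot be told apart by a test.

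In the dIWS1 columns INTS3 stayed last, at 5.53 per kb in column 1 and 6.001 in column 2. PCF11, the fifth in the control, went to 63.5 and 68.5 per kb, near the control level of genes such as CSTF2T (67.0) and ZC3H4 (69.2). INTS6 went from 65.3 to 23.7 and 24.6 per kb. SCAF8, the first in the control, was at 157.9 and 178.4. Across the 36 members the log2 fold change had a Pearson r of 0.26 with the log2 control level per kb (Spearman 0.22), given as a description since both contain the same control reads.

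**Figure D3:**
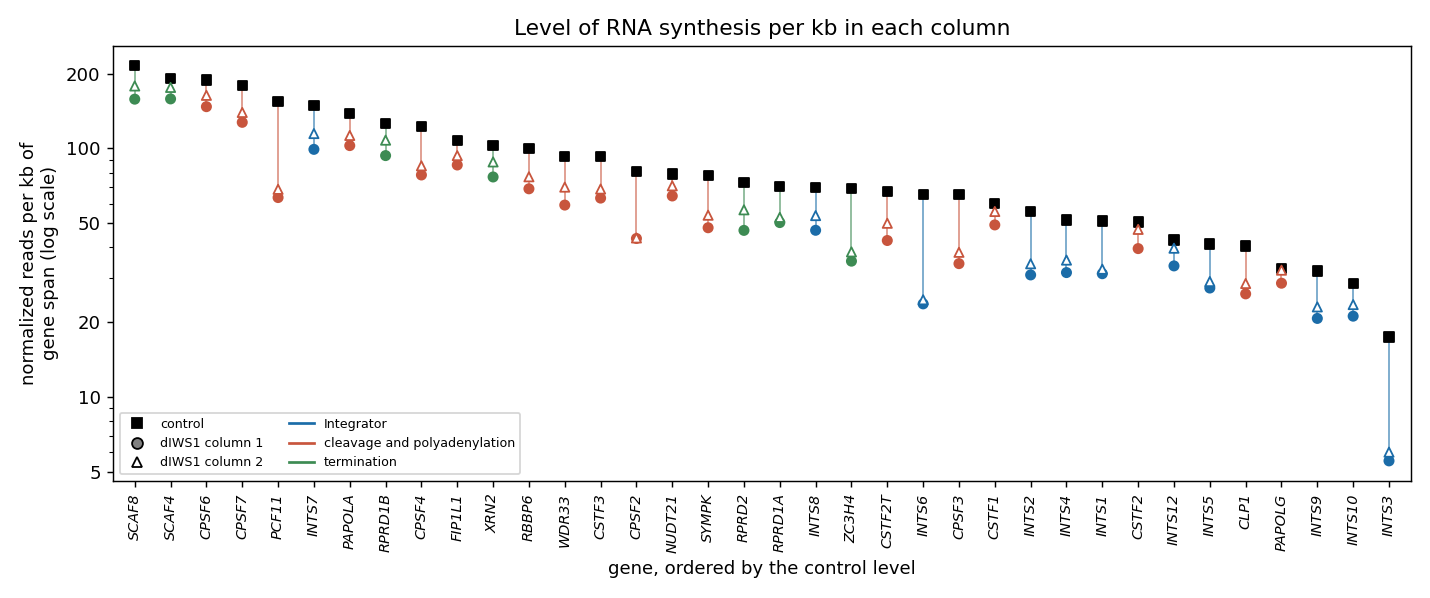
Normalized read pairs per kb of gene span (log scale) for each listed member, ordered by the control level, with black squares for the control, filled circles for dIWS1 column 1 and open triangles for column 2, and lines coloured by subgroup. The longest drops are those of INTS3 (17.4 to 5.53 and 6.001), INTS6 and PCF11.

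Members are longer than the genes of the table as a whole, with a median span of 49.5 kb (4.1 to 122.3 kb) against 27.1 kb for all genes. Genes were therefore set beside others of their length class (shortest, short, long and longest, with median spans of 4.58, 17.0, 40.95 and 116.6 kb). In the long class, 17 members had a median of -0.47 and all genes of that class -0.35, and 4 of the 5 genes that were lower relative to the median gene fell in it. In the longest class, with INTS6, 11 members had a median of -0.49 and all genes -0.49. In the short class, 5 members had a median of -0.23, above the -0.39 of all genes there, and in the shortest class 3 members had -0.54 beside -0.49. The share of all genes that were lower under spike-in scaling also varied with length. It was 59.19% in the shortest, 63.94% in the short, 57.38% in the long and 77.99% in the longest class.

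Measured from the median of its own length class, INTS3 stood at -1.25, INTS6 at -0.94, PCF11 at -0.88, ZC3H4 at -0.57, CPSF2 at -0.54 and CPSF3 at -0.50. The 5 genes thus had the same order as before. Over the 36 members the log2 fold change had a Pearson r of -0.11 with log10 span (Spearman -0.13), a description over genes of the same 3 columns.

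**Figure D4:**
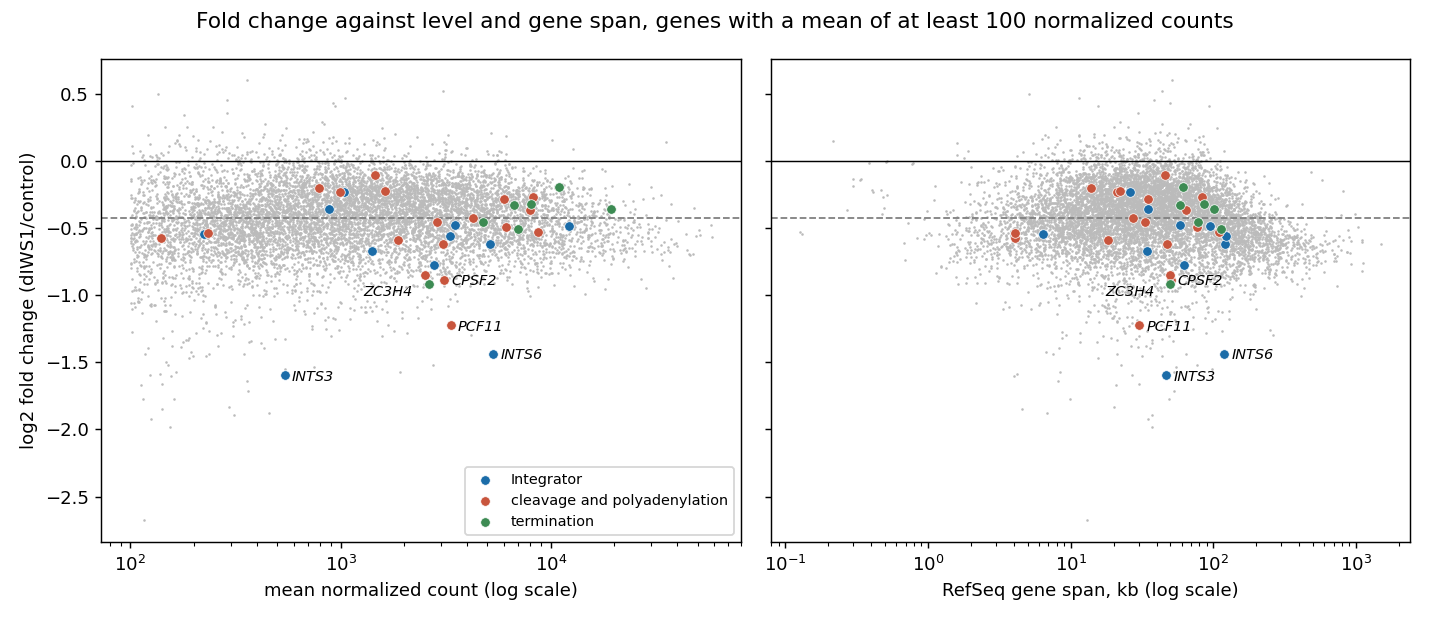
Log2 fold change (dIWS1/control) of the 8896 genes whose mean normalized count reached 100 (grey) and of the members (coloured by subgroup) against the mean normalized count and against the RefSeq gene span, both on log scales. The dashed line marks the median of all genes (-0.43), and the 5 labelled genes are those lower relative to the median gene.

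The neighbours of the 5 genes were taken as the nearest listed gene on each side with a mean of at least 100. Next to INTS6 on one side, at 268.2 kb, GUCY1B2 had 585 read pairs in the control, 250 in column 1 and 245 in column 2 and a log2 fold change of -1.16, -0.74 relative to the median gene (limma adjusted p = 5.64e-06). On its other side WDFY2 had -0.33. ARHGAP35 beside ZC3H4, with 6214, 3168 and 3253 read pairs, was at -0.87, also lower relative to the median gene (-0.45, adjusted p = 0.0396), and SAE1 at -0.59 was not. The neighbours of INTS3 were at -0.24 (ILF2) and -0.70 (GATAD2B), and those of CPSF2 at -0.44 (NDUFB1, 0.263 kb away) and -0.73 (RIN3). Beside PCF11, RAB30-AS1 was at -0.48, and ANKRD42 at -0.05 was higher than the median gene (0.38, adjusted p = 0.0448), 6.26 kb from the end of PCF11. Of the 10 neighbours, 2 were thus lower and 1 was higher relative to the median gene, where 4.78% and 3.01% of all genes were.

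Column 1 was below column 2 for 36 of 36 members, as for 7986 of 10132 genes, and the median of the members was -0.58 in column 1 and -0.39 in column 2. After each column was centred on its own median gene, the median absolute difference between the columns was 0.05 for the members and 0.08 for all genes. This measure leaves out direction. The column medians of the members (-0.58 and -0.39) lay further apart than those of all genes (-0.47 and -0.37). Centring on all genes therefore did not remove the whole shift between the columns for the members. For INTS3 the centred values were -1.18 and -1.17, for INTS6 -0.99 and -1.04, for PCF11 -0.81 and -0.80, for ZC3H4 -0.50 and -0.48 and for CPSF2 -0.42 and -0.51.

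The calls depend on the size factors. When the columns were scaled by their total reads in genes instead, which puts the median gene at 0.02, 9 members were lower and 4 were higher, where spike-in scaling gave 28 and 0. Over all genes the split moved to 1143 lower and 1557 higher. The 9 were the 5 named above with CPSF3, INTS2, INTS1 and INTS4, and the 4 were PAPOLG (0.34), SCAF4 (0.25), NUDT21 (0.22) and FIP1L1 (0.18). In an alternative added after seeing the data, this scaling was also used relative to the median gene. It left the members' values almost as they were, so the calls changed there through the spread that the fit gave. There 10 members were lower and 3 higher, where spike-in scaling gave 5 and 0, and over all genes 1248 were lower and 1415 higher. The 5 named genes were among the 10, with CPSF3, INTS2, INTS1, INTS4 and SYMPK (limma adjusted p from 0.00311 to 0.0429), and the 3 were PAPOLG (0.32, adjusted p = 0.0107), SCAF4 (0.23, adjusted p = 0.0133) and NUDT21 (0.20, adjusted p = 0.0469).

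Other genes of the same pathways were taken from a list of 43 symbols, of which 35 were listed. Some genes entered that list under both an older and a newer symbol, so 43 is not a number of genes. Their median log2 fold change was -0.41, 23 of 35 (65.71%, beside 64.4% of all genes) were lower under spike-in scaling and none was higher (limma voom, 0 at an unadjusted p under 0.05 and 0 without voom weights). Relative to the median gene 4 were lower, where 4.78% of all genes were, and none was higher (1, INIP, at an unadjusted p under 0.05, and 0 without voom weights). PPP1R10, a nuclear subunit of protein phosphatase 1 that acts on Pol II at termination, had 2260 read pairs in the control, 853 in column 1 and 882 in column 2. Both columns lay far below the control, and its fold change was -1.30 (SE 0.14), -0.88 relative to the median gene (limma adjusted p = 1.58e-07).

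SSU72, a phosphatase of the C-terminal domain of Pol II that works with the cleavage machinery, had 3181, 1347 and 1491 read pairs and a fold change of -1.09 (SE 0.15), -0.66 relative to the median gene (limma adjusted p = 0.000419). TUT1, a nucleotidyltransferase also known as a non-canonical poly(A) polymerase, had 809, 430 and 416 and was at -0.86 (SE 0.13), -0.43 relative to the median gene (adjusted p = 0.0197). For PPP1R10, SSU72 and TUT1 the control lay above both dIWS1 columns without overlap, as for 92.1% of all genes. Apart from INTS6L, given above, the Integrator subunits found from this list were VWA9, the older symbol of INTS14 (-0.66), ASUN for INTS13 (-0.43) and C7orf26 for INTS15 (-0.36). These were all lower under spike-in scaling and none was lower relative to the median gene. The endonuclease INTS11 was looked for under that symbol and as CPSF3L, and neither had a row with recovered reads. The catalytic subunits of protein phosphatase 2A, PPP2CA (-0.20) and PPP2CB (-0.18), did not pass either test.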

How the data were processed

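TT-seq libraries of dIWS1 and control cells were compared, with 2 samples in each group per the labels. Per the labels and the study's methods, the authors aligned reads with STAR 2.6.0 to GRCh38 with spike-in sequences added, kept unique alignments, made strand-specific counts of read pairs over RefSeq genes, removed overlapping and low genes and ran DESeq2 with spike-in size factors. The deposited table holds a signal per gene, an average over the libraries of spike-in normalized counts. It also holds the authors' log2 fold change with its standard error, statistic, p-value and adjusted p-value. The deposited log2 fold change was used only to check and narrow the read recovery and to tell the columns apart. The other comparison columns were not used.

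Each mean was split into whole numbers of 3 steps, the smallest units found between low means. Of 10136 means above 0, 10132 had 1 solution, 4 had several and were left out, and 11 rows had a mean of 0. The 5206 means up to 1000 that were split from the mean alone came within 0.00623 of the deposited ratio (log2) for means of 100 to 1000. Of 600 shifted means, 1 could be split. The procedure was tested on simulated data. Size factors were 1.01 (control), 0.9932 and 0.9194.

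Read pairs were fitted with limma voom (limma 3.58.1, R 4.3.3) with spike-in size factors as library sizes, and Benjamini-Hochberg adjustment ran over all 10132 genes. The fit gave every gene the spread of the common trend, with no spread of its own. Intervals are 95%. Ratios of single columns used a pseudocount of 0.5. Positions and spans came from RefSeq (GRCh38.p14), where 9340 genes matched by symbol, 575 by synonym and 169 by gene number and 48 were not matched. Figures and tables used Python 3.11.15 with pandas 2.3.3, numpy 2.4.6 and matplotlib 3.10.9. Members described in full were the lowest and highest of each subgroup and those called relative to the median gene. Other members were given values after these were seen. The members and lists were chosen with earlier results of these data known. Alternatives were other thresholds, filters, weights, scalings and pseudocounts, and each dIWS1 column alone. Of the other pathway genes lower relative to the median gene, 1 is counted and not reported here by name.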

Additional observations from a re-analysis of the deposited data

How the results depend on the processing

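The adjusted p of INTS3, INTS6 and PCF11 relative to the median gene depended strongly on the fit. In limma voom with the control entered as 2 equal columns, or with scaling by total reads, it was far larger than in the reported fit. These 3 genes were lower relative to the median gene in every fit and threshold tried. CPSF2 and ZC3H4 were not at an adjusted p under 0.01, with a minimum change of 0.5 or without voom weights, which each left 3 members. With the control entered as 2 equal columns, 8 members were lower, adding CPSF3, INTS2 and INTS1, and over all genes 1584 were lower and 1133 higher, where the reported fit gave 484 and 305. At an adjusted p under 0.01 these were 258 and 106, and without voom weights 301 and 110. Scaling by total reads, an alternative chosen after seeing the data for this test, gave 10 lower and 3 higher members and 1248 lower and 1415 higher genes. The higher genes numbered 480 at an adjusted p under 0.1 and 109 with a minimum change of 0.5.

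Under spike-in scaling the 28 lower members became 17 with a minimum change of 0.5, 11 with all dIWS1 values moved up by 0.2 on the log2 scale and 9 with scaling by total reads, which also made 4 higher. Over all genes the 6530 lower became 3754, 2740 and 1143 in the same order. In place of 11 higher genes there were 6 at an adjusted p under 0.01, 23 at 0.1, 4 with a minimum change of 0.5, 26 without voom weights, 61 with 2 equal control columns, 1557 with scaling by total reads, and 55 and 4 with dIWS1 moved up or down by 0.2.

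With 1 dIWS1 column at a time, the medians ran from -0.58 to -0.39 for the members, -0.47 to -0.37 for all genes, -0.63 to -0.50 for Integrator, -0.55 to -0.39 for cleavage and polyadenylation and -0.45 to -0.27 for termination. These are values without a test, since no residual degrees of freedom are left. The value of PCF11 relative to the median gene was -0.81 with column 1 alone. Recentred on the median gene, the medians were -0.062 for the members, 0.0 for all genes, -0.13 for Integrator, -0.050 for cleavage and polyadenylation and 0.066, a change of sign, for termination. The sign also changed, by construction of the centring, for INTS12 (0.20), INTS10 (0.072), FIP1L1 (0.16), CSTF1 (0.22), CSTF2 (0.20), NUDT21 (0.20), CPSF6 (0.14), CPSF7 (0.0038), PAPOLA (0.060), PAPOLG (0.32), XRN2 (0.10), SCAF4 (0.23), SCAF8 (0.066) and RPRD1B (0.095). Pseudocounts of 1 and 5 changed no direction of a member, and filters on means of at least 10 or 100 changed no call of the 5 genes.

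No paired analysis was possible because the columns carry no replicate numbers and the table holds 1 control column. CLP1, the member with the fewest read pairs, had the widest error (SE 0.17). A single control column leaves its own variation unmeasured.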
